A study of Mus musculus with 2 samples.

Results

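The genes of glycolysis and of the hypoxia response were followed in the myeloid cells of colonic polyps, in 41 genes of the 32285 that were counted. The set was given as a list of 24 glycolysis genes (transporters, enzymes and the regulators of the pathway) and 17 hypoxia-response genes (the oxygen-sensing machinery and its known targets), and all 41 were found among the counted genes. The cells were CD11b+ and CD11c+ cells sorted from polyps of C57BL6/J mice at 26 weeks of age that had been given azoxymethane (AOM), a carcinogen, followed by DSS (dextran sodium sulfate, 1%) in 3 cycles, and were studied 16 weeks after AOM. One library (WT) pooled 5 wild-type mice and the other pooled 4 *Clec7a*-/- mice, which carry a germline deletion of the β-glucan receptor Dectin-1 and had been backcrossed for 9 generations. *Clec7a* itself was not analysed here, so the genotype labels were not checked against it. Each genotype is therefore 1 library without a replicate, no test between them is possible, and every interval given below is an exact 95% interval that covers counting error only.

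Glycolysis splits glucose into pyruvate, which is turned into lactate and exported when the pathway runs faster than the mitochondria. The transcription factor HIF-1 is destroyed in oxygen by prolyl hydroxylases and, when oxygen is scarce, switches on most glycolytic enzymes together with angiogenic, mitophagy and stress genes. Neutrophils live mainly on glycolysis, and monocytes and macrophages raise it when activated or when they enter a poorly perfused tissue.

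HIF binds DNA at a core of the letters ACGTG or GCGTG, read on either strand. Only ACGTG was counted here, and it is called the core below. In RefSeq promoter windows of GRCm38.p6, which run from 250 bases before to 50 bases after each start, 37 of the 41 genes had 55 windows. At least 1 ACGTG stood in 31 of these windows (56.4%) and at least 2 in 11 (20.0%), whereas the shares over all 32851 windows of the genome were 19.6% and 2.69%. The palindrome CACGTG, which matches on both strands and is also read by other factors such as MYC, was counted once. By group, 18 of 36 glycolysis windows and 13 of 19 hypoxia-response windows held the core. Some windows of the same gene overlap, as for *Aldoa*, so a core can be counted more than once. The windows of the members were not matched to those of the genome for base content, and its part in the contrast was not tested. *Slc2a3*, *Epas1*, *Bnip3l* and *Ndrg1* have no window here. The upstream bases of 4 of the glycolysis genes with repeated cores are shown as examples. Those of *Vegfa* are shown because it was apart between the libraries in more clusters than any other member. Capitals mark ACGTG or its reverse complement CACGT, and each sequence is read 5′ to 3′ on the strand of its gene.
Ldha (chr7:46845554-46845803, forward strand): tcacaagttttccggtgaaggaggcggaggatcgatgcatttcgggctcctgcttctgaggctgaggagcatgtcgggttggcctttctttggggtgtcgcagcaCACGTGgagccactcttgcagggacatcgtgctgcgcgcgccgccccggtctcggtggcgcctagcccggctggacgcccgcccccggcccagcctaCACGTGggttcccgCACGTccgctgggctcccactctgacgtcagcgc
Pgk1 (chrX:106186850-106187099, forward strand): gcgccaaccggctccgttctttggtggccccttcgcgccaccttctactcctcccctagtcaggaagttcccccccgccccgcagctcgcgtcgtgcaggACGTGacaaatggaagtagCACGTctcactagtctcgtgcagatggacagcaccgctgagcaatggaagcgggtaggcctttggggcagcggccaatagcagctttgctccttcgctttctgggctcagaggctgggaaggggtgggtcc
Hk2 (chr6:82774455-82774704, reverse strand): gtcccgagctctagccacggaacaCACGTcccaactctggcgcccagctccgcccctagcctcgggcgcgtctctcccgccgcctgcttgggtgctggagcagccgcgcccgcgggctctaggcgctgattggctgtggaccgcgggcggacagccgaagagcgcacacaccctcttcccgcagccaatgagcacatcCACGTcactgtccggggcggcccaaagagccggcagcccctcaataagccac
Slc16a3 (chr11:120948817-120949066, forward strand): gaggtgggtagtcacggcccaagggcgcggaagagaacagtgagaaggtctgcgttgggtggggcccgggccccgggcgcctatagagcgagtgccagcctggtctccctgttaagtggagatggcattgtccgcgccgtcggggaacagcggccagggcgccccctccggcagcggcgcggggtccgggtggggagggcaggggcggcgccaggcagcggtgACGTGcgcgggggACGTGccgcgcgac
Vegfa (chr17:46032378-46032627, reverse strand): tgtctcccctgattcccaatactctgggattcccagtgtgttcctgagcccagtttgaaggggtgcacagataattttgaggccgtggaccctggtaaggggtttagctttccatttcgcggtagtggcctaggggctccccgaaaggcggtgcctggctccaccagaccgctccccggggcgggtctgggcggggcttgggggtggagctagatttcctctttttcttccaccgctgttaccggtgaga
The *Ldha* window holds 3 cores and the other 3 glycolysis windows hold 2 each. *Vegfa* has 2 windows. The one shown has no core, which says only that these letters are not within this stretch, and the other, at chr17:46025114-46025413 on the reverse strand, holds 1.

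After the cell filter 2696 WT and 1999 *Clec7a*-/- cells remained, with 12283285 and 7559096 unique molecular identifiers (UMIs, 1 per captured transcript) and medians of 3412.5 and 2671 UMIs per cell. Clusters were drawn without the 41 genes, so that the levels below did not shape them, and 11 of the 16 clusters had at least 100 cells. The neutrophil-like class was made of cluster 2 (492 WT and 82 *Clec7a*-/- cells) and cluster 3 (186 and 320), the monocyte-like class of clusters 0 and 1, the macrophage-like class of clusters 4 and 6, the DC-like class of clusters 5 and 9 and the T-cell-like class of cluster 10. Most neutrophil-like cells thus came from a different cluster in each library, and cluster 3 was shallow, with 1147.5 and 913.5 UMIs at the median, little over the limit below which a cluster was left unnamed, and none of the class markers was among its leading genes. Clusters 7 and 8 carried markers of 2 lineages or too few markers and kept their numbers. Doublets were not removed, and 17 barcodes occurred in both libraries. Levels are UMIs of a gene per 1000000 UMIs of the same cells (CPM). Since UMIs are counted at the 3′ end of transcripts, they were not divided by gene length. Fewer transcripts of a gene per cell and more of everything else cannot be told apart on this scale.

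Transcripts of glycolysis were most abundant in the monocyte-like and macrophage-like cells and least abundant in the DC-like cells. The 24 genes summed to 8302 CPM in the monocyte-like class, 7758 in the macrophage-like class, 6150 in the neutrophil-like class and 4906 in the DC-like class, in both libraries together. Against the macrophage-like class this was a log2 ratio of 0.098 (0.078 to 0.12) for the monocyte-like, −0.33 (−0.36 to −0.31) for the neutrophil-like and −0.66 (−0.69 to −0.64) for the DC-like cells. The small monocyte-like excess rested on pyruvate kinase, since it turned to −0.033 without *Pkm* and the median gene stood at −0.025. Of the glycolysis genes with at least 100 UMIs in the pair of classes, 13 of 19 were at least 1.5-fold lower in DC-like than in macrophage-like cells and 2 were higher, and 28.3% of all genes were lower and 23.6% higher. The other 5 had too few UMIs to be compared, so these counts do not cover the whole list. The median gene of the list stood at −0.99 in that comparison, and the median of all genes at −0.0042. For the neutrophil-like class 12 of 21 were lower and 7 higher, beside 64.6% and 19.1% of all genes, so that the share of lower genes was near the background. The median gene of the list stood at −0.78 in that class and the median of all genes at −1.31.

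The 17 hypoxia-response genes followed another order. They summed to 2352 CPM in T-cell-like, 2285 in monocyte-like, 1891 in macrophage-like, 1809 in DC-like and 1276 in neutrophil-like cells. The log2 ratio over macrophage-like cells was 0.27 (0.23 to 0.31) in monocyte-like, −0.064 (−0.11 to −0.020) in DC-like and −0.57 (−0.63 to −0.51) in neutrophil-like cells. The DC-like value rested on *Ndrg1*, as it was −0.86 without that gene, and so did most of the monocyte-like excess. In the monocyte-like comparison the median gene of the list stood at 0.22 in WT and −0.049 in *Clec7a*-/- cells. Of the 14 hypoxia-response genes compared between monocyte-like and macrophage-like cells, 4 were at least 1.5-fold higher and 1 lower, beside 14.3% and 18.5% of all genes. In neutrophil-like cells 6 of 14 were lower and 2 higher, beside 64.6% and 19.1% of all genes. The median gene of the list stood at −0.48 there and the median of all genes at −1.31, so the list was less reduced than most genes. In DC-like cells 6 of 13 were lower and 1 higher, beside 28.3% and 23.6%.

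Clusters of the same class also differed. Cluster 1, the monocyte-like cells with *Ccl24*, *Arg1* and *Fn1*, had a glycolysis sum of 8964 CPM (8855 to 9074) and a hypoxia-response sum of 2454, the highest of the 11 clusters in both. The other monocyte-like cluster, cluster 0, with *Ly6c2*, *Chil3* and *Vcan*, had 7248 and 2015. Of the 10 monocyte markers, 8 were raised in cluster 0 but only 4 in cluster 1 (*Fn1*, *Ccl24*, *Mmp19* and *Sdc1*), without *Ly6c2*, *Chil3* or *Ccr2*. The log2 ratio of the glycolysis sum over macrophage-like cells was −0.098 (−0.13 to −0.070) in cluster 0 and 0.21 (0.19 to 0.23) in cluster 1. The monocyte-like excess in glycolysis was thus that of cluster 1. The macrophage-like cluster 6, led by *Igf1*, reached 8713 CPM for glycolysis and cluster 4 only 6480, while their hypoxia-response sums of 1858 and 1936 were close. In the *Clec7a*-/- library alone the glycolysis sum of cluster 6 was above that of cluster 1, at 9533 and 9271 CPM. The DC-like cluster 5, with *Fscn1* and *Il12b*, had the lowest glycolysis sum (4558) and a hypoxia-response sum of 2224, whereas cluster 9, with *Xcr1* and *Clec9a*, had 5288 and 1352. High glycolysis and high hypoxia-response sums thus did not go together in the DC-like cells. Most of the hypoxia-response UMIs of cluster 5 came from *Ndrg1* and *Mxi1*. *Ndrg1* had 737 in WT and 1362 in *Clec7a*-/- cells and *Mxi1* 316 and 524, of 1573 and 2689. The sum of cluster 5 therefore does not speak for the whole list.

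**Figure D1:**
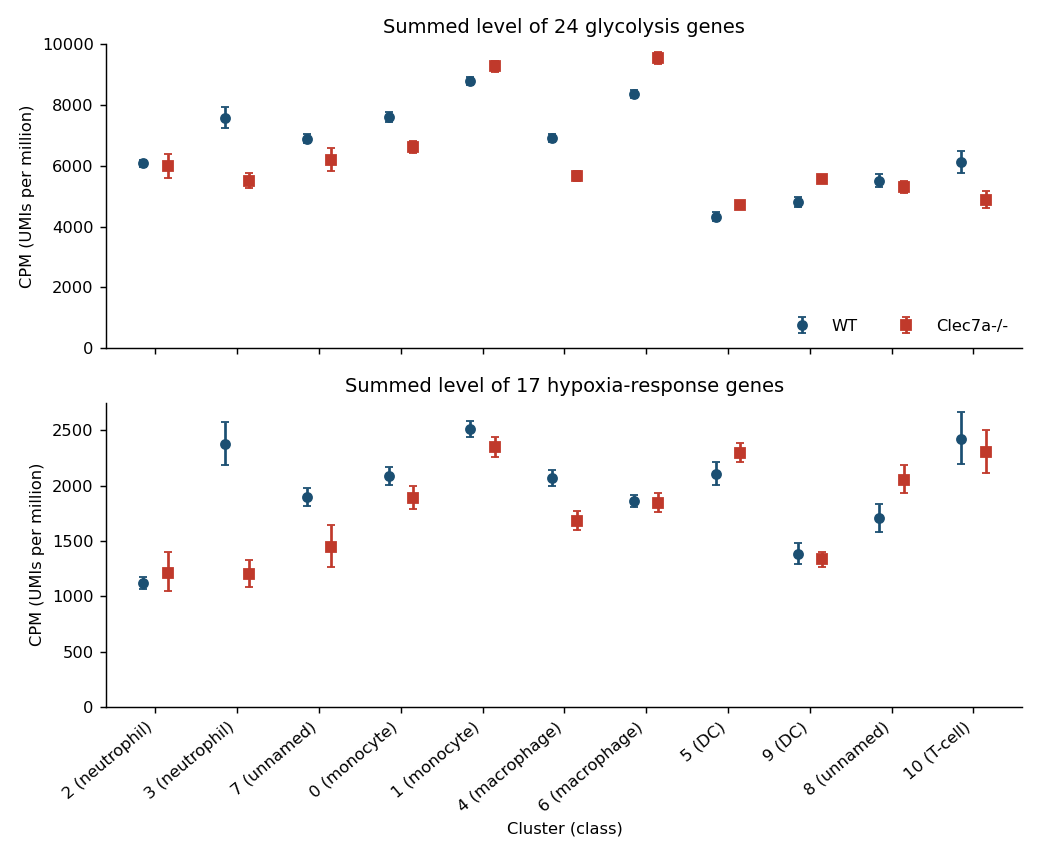
Summed level in CPM of the 24 glycolysis genes (top) and the 17 hypoxia-response genes (bottom) in the 11 clusters with at least 100 cells, for the WT and the *Clec7a*-/- library. Bars are exact Poisson 95% intervals for counting error. Cluster 1 is highest in both sums over both libraries, at 8964 and 2454 CPM, and the DC-like cluster 5 is lowest for glycolysis at 4558.

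A few genes made up most of either sum. *Pkm* gave 21.8% of the glycolysis UMIs, *Aldoa* 17.3%, *Gapdh* 14.7% and *Pgk1* 11.7%, and *Ndrg1* gave 21%, *Vegfa* 17.7% and *Mif* 14.5% of the hypoxia-response UMIs. *Pfkm*, the muscle phosphofructokinase, *P4ha2* and *Adm* had fewer than 100 UMIs over all cells. Because of this concentration the genes were followed one by one, in the order of the pathway.

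Glucose enters through facilitative transporters, of which *Slc2a1* (GLUT1) is widespread and *Slc2a3* (GLUT3) has a high affinity for glucose. *Slc2a3* was at 474 CPM (445 to 503) in neutrophil-like cells, 32.0 in monocyte-like, 11.7 in macrophage-like and 6.83 in DC-like cells. It held 70.3% (67.9 to 72.6) of the UMIs of the pair in the neutrophil-like class, 15.7% in the monocyte-like class and 10.3% in the macrophage-like class. The neutrophil-like share was 71.1% in the WT and 67.1% in the *Clec7a*-/- library, with overlapping intervals. *Slc2a1* was spread far more evenly, from 200 CPM in neutrophil-like and 172 in monocyte-like to 102 in macrophage-like and 22.1 in DC-like cells. *Slc2a3* therefore separated the neutrophil-like cells from the rest, and *Slc2a1* separated the DC-like cells.

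Hexokinases trap glucose in the cell, and the 3 genes divided the classes among themselves. *Hk3* was at 213 CPM (195 to 233) in neutrophil-like cells and gave 63.3% (59.7 to 66.8) of their hexokinase UMIs. *Hk2*, the inducible form, gave 68.8% (66.0 to 71.4) in macrophage-like and 77.8% (73.6 to 81.7) in DC-like cells, and 89.5% in cluster 9. *Hk1*, the housekeeping form, led only in T-cell-like cells, with 77.4% (65.0 to 87.1), and shared the lead in the monocyte-like cluster 0 with 47.4% beside 41.8% for *Hk2*. The leading forms were the same in both libraries. *Hk3* gave 63.3% of the neutrophil-like hexokinase UMIs in WT and 63.2% in *Clec7a*-/-, and *Hk2* 89.0% and 89.7% in cluster 9.

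The next committed step belongs to phosphofructokinase, which is stimulated by the product of the PFKFB enzymes. *Pfkp* was the leading form in each of the 4 classes, from 78.3% of the UMIs in macrophage-like to 97.6% (96.1 to 98.6) in DC-like cells, where its level was also the highest, at 166 CPM against 42.7 in macrophage-like cells. *Pfkfb3* was high in neutrophil-like (265 CPM) and DC-like cells (243 CPM) and low in monocyte-like (31.8) and macrophage-like cells (42.9). In the DC-like class it came from cluster 5, at 402 CPM (374 to 432), and cluster 9 had 68.2. *Pfkfb4* gave 35.8% of the pair's UMIs in the macrophage-like cluster 4 and 8.14% in cluster 6. The DC-like cells with the lowest glycolysis sum thus had the highest levels of a gene that activates the pathway.

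Of the aldolases, *Aldoa* gave nearly all UMIs. *Aldoc* was at 61.1 CPM (52.4 to 70.8) in cluster 1 and 3.85 in cluster 0, where it had 5 WT and 2 *Clec7a*-/- UMIs. It was at 41.6 and 40.6 in the macrophage-like clusters and at 4.03 in neutrophil-like cells. The monocyte-like clusters were therefore set apart by *Aldoc*, which was among the 10 leading genes of cluster 1 although it had no part in drawing it. Of the enolases, *Eno2*, named for neurons, gave 23.5% (18.0 to 29.7) of the UMIs in the DC-like cluster 5, 13% in cluster 8 and 3.52% in cluster 9, and 0.847% in neutrophil-like cells. *Eno1* has a near copy, *Eno1b*, to which 78 WT and 64 *Clec7a*-/- UMIs were assigned, so that its counts may be split.

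**Figure D2:**
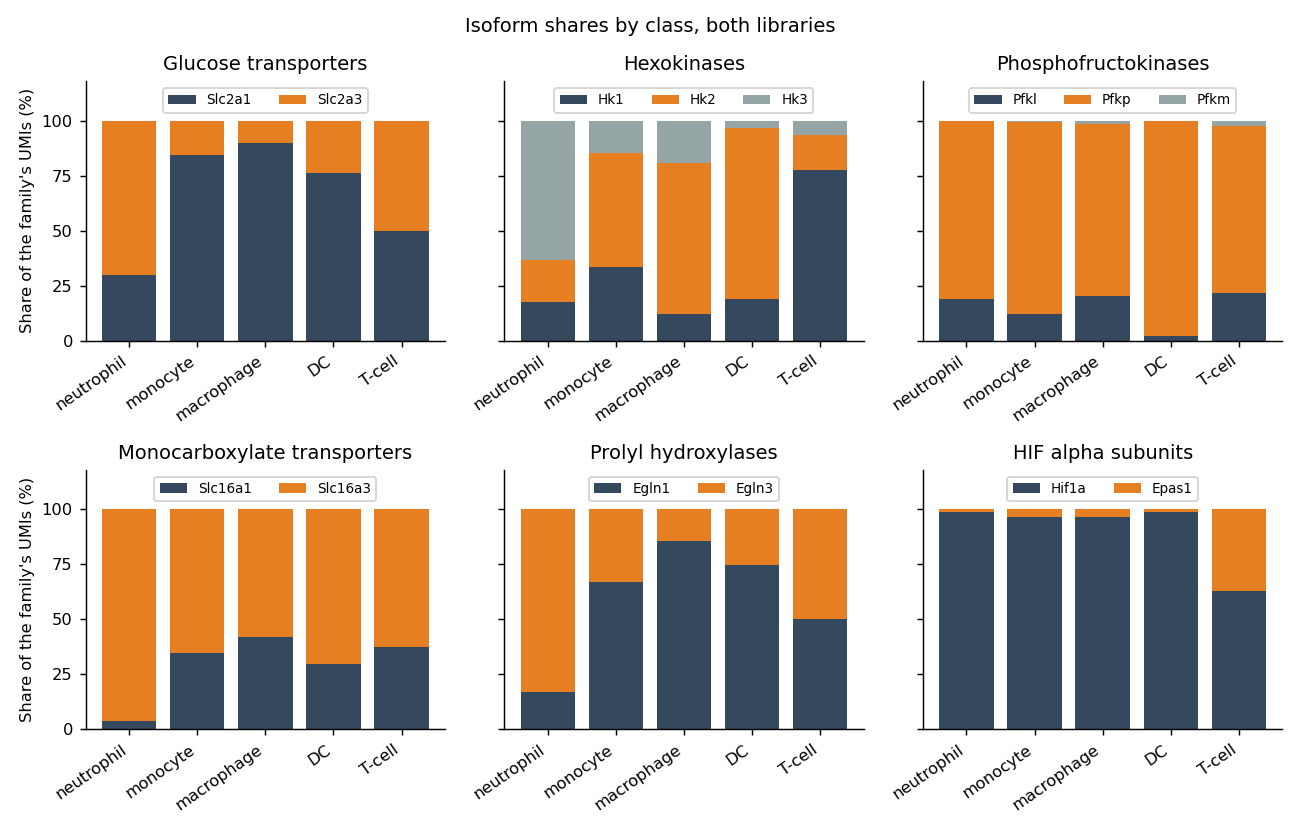
Share of each gene in the UMIs of its isoform family, in percent, by cell class over both libraries, as stacked bars. *Slc2a3* and *Hk3* hold 70.3% and 63.3% of their families in neutrophil-like cells, *Hk2* leads in macrophage-like and DC-like cells, and *Egln3* holds 82.9% of the prolyl hydroxylase UMIs in neutrophil-like cells.

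From aldolase to lactate dehydrogenase, 7 enzymes without *Pkm* tended to move together across clusters, less closely in the WT library. Over the 11 clusters the 21 pairs of *Aldoa*, *Tpi1*, *Gapdh*, *Pgk1*, *Pgam1*, *Eno1* and *Ldha* had a median Pearson r of 0.57 (0.13 to 0.93) in WT and 0.78 (0.58 to 0.92) in *Clec7a*-/- cells. Clusters of 1 library share its preparation and its total, so these values describe the libraries. *Mif*, a cytokine gene counted here with the hypoxia response, was most like the mean of the 7 enzymes, with 0.92 and 0.85, and *Pfkfb3* least like it, with −0.71 and −0.64. *Pgam1* showed the widest range of the 7 among the classes, from 878 CPM in macrophage-like to 224 in neutrophil-like cells. *Pkm*, which is not among the 7, had an r of 0.54 with their mean in WT and 0.14 in *Clec7a*-/- cells. It was highest, at 2533 CPM, in cluster 0, where *Ldha* (299 CPM), *Pgam1* (387) and *Aldoa* (915) were low for a monocyte-like or macrophage-like cluster.

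Lactate leaves through *Slc16a3* (MCT4), the exporter of strongly glycolytic cells, or *Slc16a1* (MCT1), which carries it both ways. *Slc16a3* was at 268 CPM in neutrophil-like, 93.1 in monocyte-like, 43.7 in macrophage-like and 21.9 in DC-like cells, and gave 96.1% (94.3 to 97.5) of the pair's UMIs in neutrophil-like cells. In the macrophage-like cluster 4 the pair was nearly even, with 46.6% (39.1 to 54.2) for *Slc16a3*. *Pdk1*, a kinase that inhibits pyruvate dehydrogenase, was at 28.1 CPM in cluster 6, from 60 WT and 35 *Clec7a*-/- UMIs. It was at or below 15.5 CPM in each of the other 10 clusters. Among the 4 myeloid classes, neutrophil-like cells thus had the highest levels of the glucose importer *Slc2a3*, the lactate exporter *Slc16a3* and *Hk3*. Their *Gapdh*, *Pgk1*, *Pgam1* and *Eno1* levels were well below the macrophage-like ones. *Pfkfb3* did not set them apart in this way. Its DC-like level was close to theirs, and it was higher in the DC-like cluster with *Fscn1* and *Il12b*.

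Oxygen sensing was also divided. *Hif1a* was at 127 CPM in neutrophil-like, 173 in monocyte-like, 176 in macrophage-like, 125 in DC-like and 390 in T-cell-like cells. *Epas1* (HIF-2α) gave 36.9% (30.9 to 43.2) of the UMIs of the pair in T-cell-like cells and at most 3.66% in the 4 myeloid classes, with no UMI in cluster 2. The hydroxylase *Egln3*, itself a HIF target, gave 82.9% (77.2 to 87.6) of the UMIs of *Egln1* and *Egln3* in neutrophil-like cells, 32.8% in monocyte-like, 25.5% in DC-like and 14.3% in macrophage-like cells. The neutrophil-like cells were thus the 1 myeloid class in which *Egln3* outweighed *Egln1*.

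Of the mitochondrial targets, *Bnip3*, which marks mitochondria for autophagy, was at 108 CPM in the macrophage-like cluster 6, 42 in cluster 4 and 10.9 in DC-like cells. Its share of the *Bnip3* and *Bnip3l* UMIs was 45.3% (41.8 to 48.8) in cluster 6 and 10.2% in DC-like cells. *Ndrg1*, a stress gene named for its repression by N-MYC, was at 1095 CPM in the DC-like cluster 5, 740 in cluster 8, 566 in cluster 9, 526 in cluster 0, 211 in cluster 4 and 88.0 in cluster 6. *Mxi1*, a MYC antagonist, was likewise highest in cluster 5, at 438 CPM, and lowest in the neutrophil-like clusters 3 and 2, at 51.0 and 54.1. *Vegfa*, the main angiogenic factor, was at 547 CPM (526 to 569) in monocyte-like, 403 (387 to 420) in macrophage-like, 251 (231 to 273) in neutrophil-like and 70.5 (62.1 to 79.6) in DC-like cells. *Mif* was highest in cluster 6 (458 CPM) and *Ddit4*, an inhibitor of mTORC1, in cluster 0 (215 CPM).
The hypoxia-response genes thus had no common site. Among the 4 myeloid classes 6 of the 17 were highest in macrophage-like, 4 in monocyte-like, 4 in DC-like and 3 in neutrophil-like cells. In each library alone this held for 6, 2, 4 and 2 of them. These counts include *Adm* (macrophage-like) and *P4ha2* (DC-like), which had fewer than 100 UMIs over all cells.

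**Figure D3:**
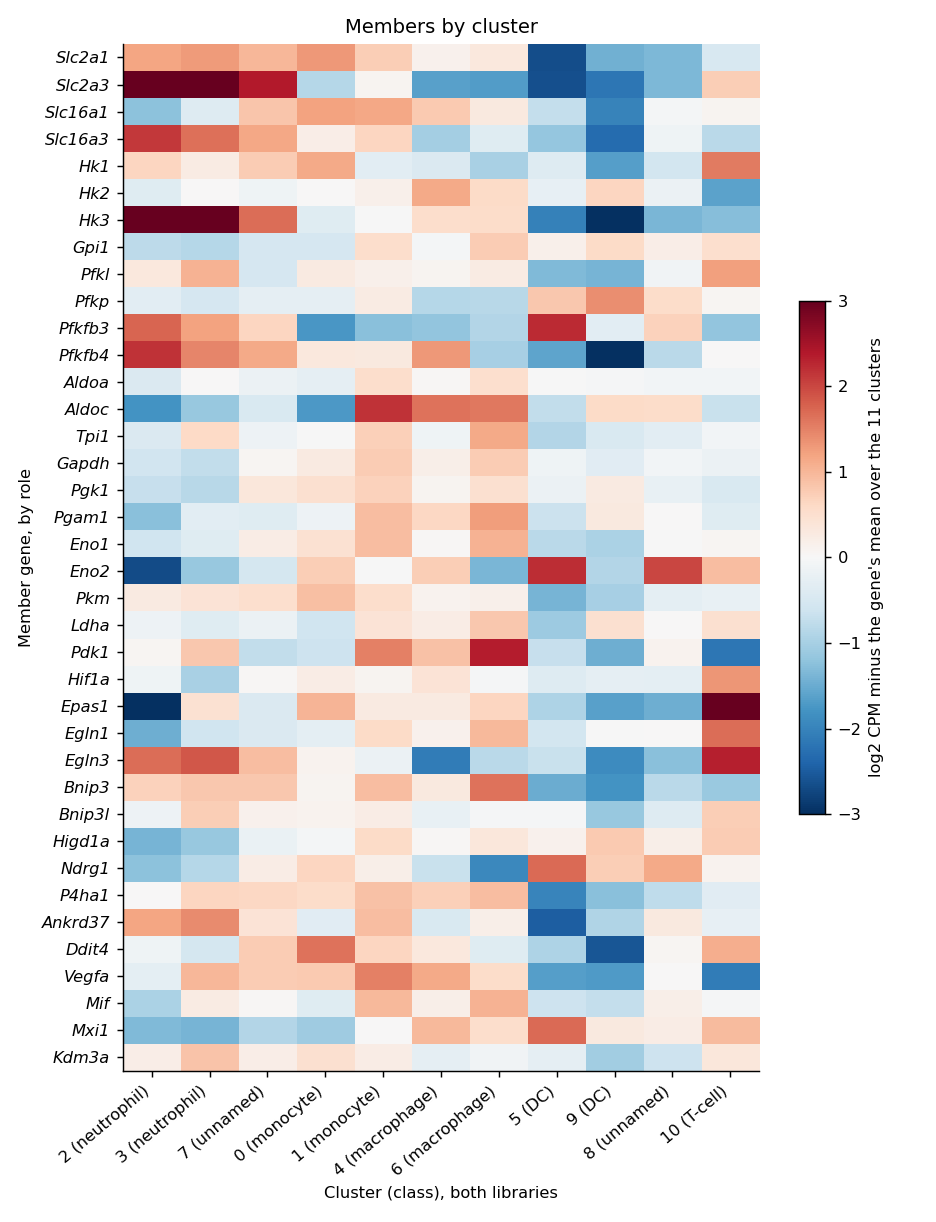
Level of 38 member genes (rows, by role) in 11 clusters (columns), both libraries together, as log2 CPM minus the mean of the gene over the clusters. The colour scale ends at 3 in either direction. *Slc2a3*, *Hk3*, *Slc16a3* and *Egln3* stand out in the neutrophil-like clusters (*Egln3* also in the T-cell-like one), and *Ndrg1* and *Mxi1* in the DC-like cluster 5. The enzymes from *Aldoa* to *Ldha* other than *Pkm* stand out in clusters 1 and 6.

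Between the libraries the sums differed little. The glycolysis sum was 7092 CPM in WT and 6616 in *Clec7a*-/- cells, a log2 ratio (*Clec7a*-/- over WT, as in all ratios below) of −0.10 (−0.12 to −0.084), and the hypoxia-response sum was 1920 and 1875, a ratio of −0.034 (−0.065 to −0.0044). Of the 38 members with at least 100 UMIs, 6 were at least 1.5-fold apart (15.9% of all 8470 such genes were). Lower in the *Clec7a*-/- library were *Slc2a3* (106 against 43.1 CPM, −1.30), *Vegfa* (409 against 218, −0.91), *Hk3* (58.9 against 35.9, −0.72), *Egln3* (31.0 against 19.3, −0.68) and *Slc16a3* (97.6 against 63.5, −0.62), and higher was *Eno2* (6.02 against 10.7, 0.83). The count of 6 was at the background, while 5 of the 38 were lower where 5.7% of all genes were. The median of all genes stood at 0.13, and scaling by TMM, which centres the bulk of the genes, lowered each ratio by 0.17 and raised the count to 10.

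The 2 libraries differed in make-up, and several of these genes are those of 1 class. Cluster 2 gave 12.3% of the WT and 2.03% of the *Clec7a*-/- UMIs, and the 14 neutrophil markers summed to 10589 and 3824 CPM. For each member the ratio was therefore computed that the cluster shares alone would give if each cluster had the same level in both libraries. Clusters were drawn from both libraries together, so a change of state that moves cells between clusters also enters this ratio. It thus does not fully separate make-up from level. It was −1.13 for *Slc2a3*, −0.81 for *Hk3* and −0.62 for *Slc16a3*, beside measured ratios of −1.30 (−1.48 to −1.13), −0.72 (−0.92 to −0.51) and −0.62 (−0.78 to −0.47). For 24 of the 38 members this value lay inside the interval of the measured ratio, which is wide where UMIs are few. For the other 14 it lay outside, among them *Pkm*, *Aldoa*, *Gapdh*, *Pgk1*, *Eno1* and *Ldha*. For the glycolysis sum it was −0.10, as measured, but abundant genes of that sum missed in both directions. *Pkm* had −0.24 against a measured −0.13 and *Aldoa* 0.0041 against 0.059, whereas *Pgk1* had −0.021 against −0.12 and *Gapdh* −0.070 against −0.12. The value from the shares missed the measured ratio by at least 0.25 for 4 members. These were *Vegfa* (−0.24 against a measured −0.91), *Egln3* (−0.33 against −0.68), *Eno2* (0.53 against 0.83, whose wide interval of 0.36 to 1.31 included it) and *Eno1* (−0.16 against −0.44).

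**Figure D4:**
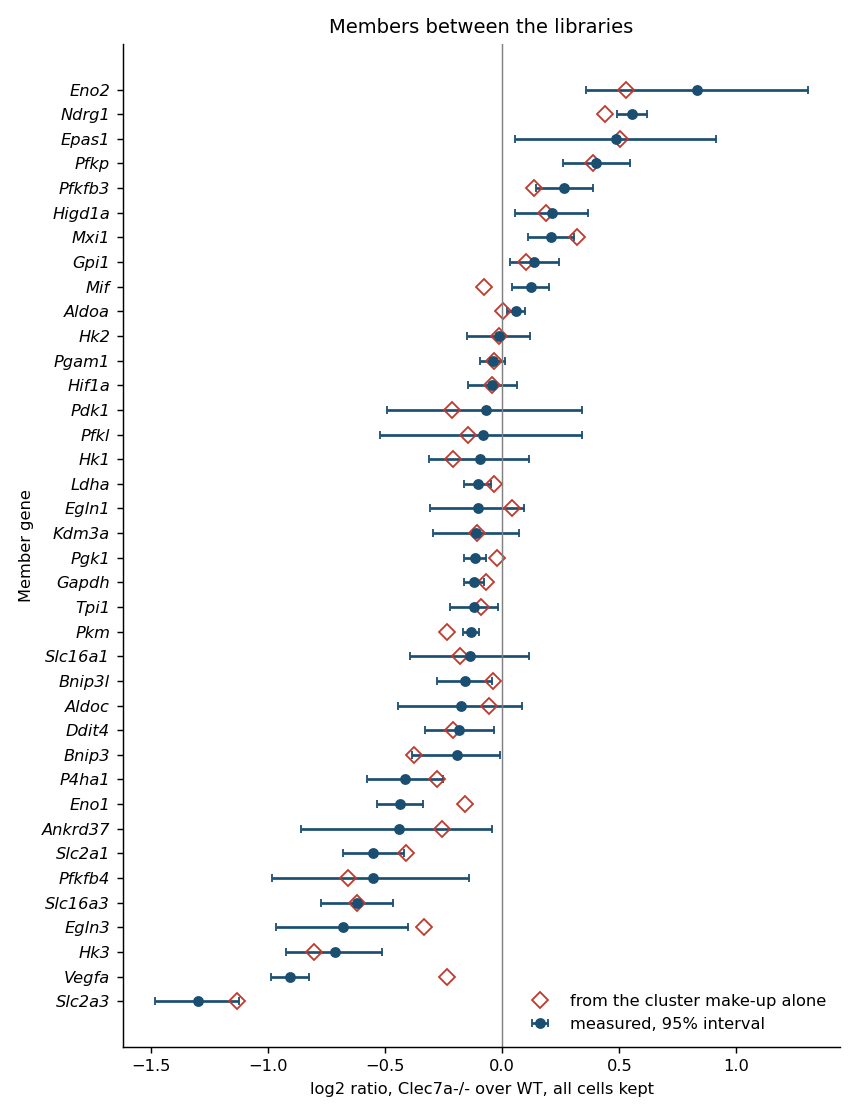
Log2 ratio of *Clec7a*-/- over WT in all cells kept for the members with at least 100 UMIs, measured (points, with 95% intervals for counting error) and as given by the cluster shares alone (diamonds). The diamonds of *Slc2a3*, *Hk3* and *Slc16a3* lie in or at the measured interval, whereas that of *Vegfa* is at −0.24 and its measured ratio at −0.91.

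*Vegfa* was lower in the *Clec7a*-/- library in most cell types. It was at 645 CPM in WT and 379 in *Clec7a*-/- monocyte-like cells (−0.77, −0.90 to −0.64), at 459 and 284 in macrophage-like cells (−0.69, −0.83 to −0.55), and at 102 and 51.7 in DC-like cells (−0.98, −1.34 to −0.61). It was the 1 member at least 1.5-fold apart in the monocyte-like class (of 32 compared, beside 5.67% of all genes), 1 of 2 in the macrophage-like class (of 31, beside 5.39%) and the 1 such member in the DC-like class (of 21, beside 6.76%). By cluster the levels in WT and *Clec7a*-/- cells were 779 and 417 in cluster 1, 432 and 318 in cluster 0, 584 and 335 in cluster 4, 371 and 241 in cluster 6, 100 and 53.0 in cluster 5, and 103 and 50.3 in cluster 9.
Of the 11 clusters 9 had a lower level in *Clec7a*-/- cells beyond counting error. Of these, the T-cell-like cluster 10 rests on 14 UMIs in 4 of 65 WT cells and 7 UMIs in 7 of 121 *Clec7a*-/- cells. Its shares of cells with *Vegfa*, 6.15% and 5.79% without thinning, were thus close. The DC-like clusters 5 and 9 were at levels near those of the T-cell-like cells. The neutrophil-like class as a whole did not follow, at 243 and 280 CPM (0.21, −0.087 to 0.49). Its clusters differed in direction, with 177 and 254 in cluster 2 and 656 and 293 in cluster 3, and the class moved to −0.67 when the clusters were drawn from the WT library alone. The neutrophil markers in cluster 3 summed to 16563 CPM in WT and 25249 in *Clec7a*-/- cells, so the cells under that label were not alike, and the part of this in the ratio was not tested. Cluster 8 showed no difference beyond counting error, at 221 and 236 CPM.

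The same was seen in the share of cells in which *Vegfa* was found. After each cell was thinned to 1000 UMIs, which left out 186 WT and 307 *Clec7a*-/- cells, *Vegfa* was present in 35.6% (31.3 to 40.1) of WT and 16.5% (12.2 to 21.5) of *Clec7a*-/- macrophage-like cells, in 35% and 27.3% of monocyte-like cells and in 9.95% and 4.12% of DC-like cells. In neutrophil-like cells it was present in 19.8% and 19.4%. Cluster 3 alone had 38.4% and 18.4%, and thinning left out 74 of its 186 WT and 184 of its 320 *Clec7a*-/- cells. The neutrophil-like shares thus describe a changed mix of clusters. T-cell-like cells, assumed to hold little *Vegfa*, had 5.45% and 3.30%, from 3 of 55 and 3 of 91 cells. Their median depths before thinning were 2194 and 1823 UMIs beside 8252 and 6608 in macrophage-like cells. The DC-like shares were close to those of the T-cell-like cells, and the macrophage-like and monocyte-like shares were well above them. Without thinning *Vegfa* was found in 51.6% of all WT and 34.1% of all *Clec7a*-/- cells.

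**Figure D5:**
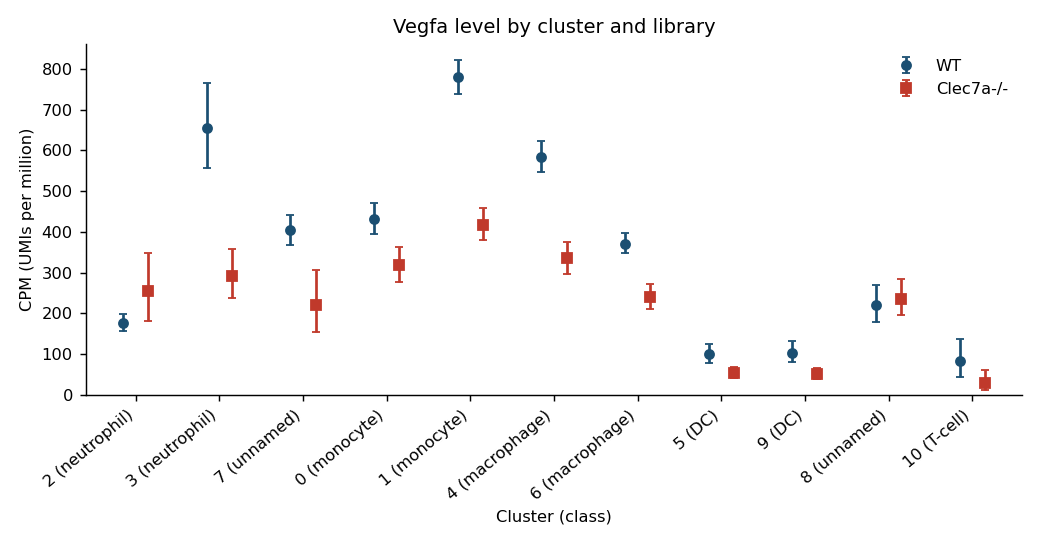
*Vegfa* level in CPM in the 11 clusters with at least 100 cells, for the WT and the *Clec7a*-/- library, with exact Poisson 95% intervals for counting error. The *Clec7a*-/- value is lower in 9 clusters, from 779 against 417 CPM in cluster 1 to 103 against 50.3 in cluster 9, higher in cluster 2, and not apart beyond counting error in cluster 8.

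The intervals of the 8 glycolysis genes highest in the neutrophil-like class included 0 between the neutrophil-like cells of both libraries. Of these, *Pfkl* and *Pfkfb4* had fewer than 100 UMIs in that class. *Slc2a3* was at 486 CPM in WT and 427 in *Clec7a*-/- cells (−0.19, −0.42 to 0.034), *Hk3* at 205 and 245 (0.26, −0.055 to 0.56) and *Slc16a3* at 270 and 262 (−0.040, −0.34 to 0.24). In cluster 3 alone, however, *Slc2a3* was higher in *Clec7a*-/- cells, at 311 and 434 CPM (0.48, 0.068 to 0.90), as were *Slc16a3*, at 119 and 274 (1.19, 0.59 to 1.86), and *Pfkfb3*, at 77.8 and 290 (1.87). Other members were at least 1.5-fold apart in the class. *Ldha*, which makes lactate, was at 442 and 211 CPM (−1.06, −1.38 to −0.76), *Egln3* at 88.4 and 50.2 (−0.79, −1.5 to −0.19), *Tpi1* at 140 and 92.1 (−0.59) and *P4ha1*, a collagen prolyl hydroxylase, at 67.3 and 43.9 (−0.59, with an interval of −1.36 to 0.064 that includes 0), while *Ndrg1* was at 137 and 211 (0.63, 0.27 to 0.96). These 5 of 28 members were at least 1.5-fold apart, and so were 19.6% of all genes in that class, so that the count was at the background. Each of the 5 was under 1.5-fold in at least 1 alternative. With clusters drawn from the WT library alone *Ldha* stood at −0.48, *Tpi1* at −0.30 and *Ndrg1* at 0.056, *Egln3* at −0.48 with reciprocal PCA, and *P4ha1* at −0.37 with a pseudocount of 5 UMIs. Cluster 2 alone gave −0.50 (−0.98 to −0.074) for *Ldha*, −1.20 for *Egln3* and −0.036 for *Tpi1*. In cluster 2, 4 of 25 members were at least 1.5-fold apart, beside 21.8% of all genes. In cluster 3, 9 of 16 members were lower and 2, *Pfkfb3* and *Slc16a3*, higher, and 46.7% of all genes were apart there.

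Beyond the neutrophil-like cells, *Slc2a3* had lower levels in the *Clec7a*-/- library too, at 49.2 and 22.5 CPM in cluster 1 (−1.10, −1.84 to −0.46) and at 13.8 and 2.63 in DC-like cells (−2.32, −4.01 to −1.01). Both values rest on few UMIs, 19 and 6 in the DC-like cells. The neutrophil markers were lower as well in DC-like cells, at 1592 CPM in WT and 1086 in *Clec7a*-/- cells. In the whole monocyte-like class, which holds cluster 0 beside cluster 1, they were at 4166 and 2598, and cluster 1 alone is not given. The part of neutrophil RNA in the *Slc2a3* values was not tested. In cluster 0 the direction was the opposite, at 13.9 and 31.6 CPM (1.18, 0.18 to 2.23), likewise from few UMIs, 16 and 21.

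In 2 classes the glycolysis sums of the libraries were close while the clusters differed in opposite directions. In macrophage-like cells it was 7761 CPM in WT and 7749 in *Clec7a*-/- cells (−0.0023, −0.031 to 0.026), made of 6915 and 5653 in cluster 4 (−0.29) and 8357 and 9533 in cluster 6 (0.19). With clusters drawn from the WT library alone the macrophage-like ratio was −0.23. In monocyte-like cells it was 8331 and 8252 (−0.014), with 7610 and 6616 in cluster 0 (−0.20) and 8785 and 9271 in cluster 1 (0.078). The DC-like cells had more in the *Clec7a*-/- library, at 4543 and 5124 CPM (0.17), in both of their clusters. Over the 11 clusters the sum was lower beyond counting error in 5 (0, 3, 4, 7 and 10) and higher in 4 (1, 5, 6 and 9).

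Outside the neutrophil-like clusters the counts of members far apart were small. At least 1.5-fold apart were 1 of 24 in cluster 0 (7.4% of all genes were), 3 of 29 in cluster 1 (7.55%), 3 of 25 in cluster 4 (7.59%), 2 of 19 in cluster 5 (6.84%), 3 of 28 in cluster 6 (5.71%), 3 of 22 in cluster 7 (17.7%), 0 of 16 in cluster 8 (8.4%) and 3 of 19 in cluster 9 (10.9%). In T-cell-like cells 3 of 9 were, *Ldha*, *Ndrg1* and *Gapdh*, each lower in the *Clec7a*-/- library (8.33%). The intervals of the abundant enzymes were narrow enough to separate smaller differences.

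The single enzymes showed the same split as their sum. *Gapdh* was at 1360 CPM in WT and 1637 in *Clec7a*-/- cells of cluster 6 (0.27, 0.18 to 0.35) and at 1051 and 800 in cluster 4 (−0.39, −0.52 to −0.27). *Pgk1* gave 0.25 in cluster 6 and −0.45 in cluster 4, and *Aldoa* 0.29 and −0.12. In cluster 0 *Gapdh* stood at −0.45 and *Pgk1* at −0.48, and in the DC-like cluster 9 *Gapdh* was at 518 and 758 CPM (0.55, 0.36 to 0.74).
These enzymes were thus lower in the *Clec7a*-/- cells of clusters 0 and 4, whose WT levels were below those of their sister clusters 1 and 6. *Pkm* was higher in 5 clusters (1, 5, 6, 8 and 9) and lower in cluster 4, and *Mif* was higher in the same 5 and lower in clusters 0, 3 and 10. *Eno1* was lower in 5 clusters and higher in none, with the widest gaps in cluster 3 (−1.43) and in cluster 4, at 191 and 89.7 CPM (−1.08, −1.47 to −0.73). *Ldha* was lower in clusters 2, 3, 4 and 10 and higher in none. *Aldoc* was at 46.9 and 28.5 CPM in macrophage-like cells (−0.71, −1.18 to −0.27) and at 33.2 and 49.1 in monocyte-like cells (0.57, 0.13 to 1.00). The macrophage-like value ran from −1.07 with up to 10% mitochondrial UMIs to −0.35 with clusters drawn from the WT library alone, which is under 1.5-fold.

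The remaining hypoxia-response genes gave no common direction. *Hif1a* itself was at 162 CPM in WT and 157 in *Clec7a*-/- cells (−0.043, −0.15 to 0.061) and its interval included 0 in each of the 11 clusters. *Ndrg1* was at 339 and 498 CPM over all cells (0.56, 0.49 to 0.62), of which the cluster shares alone gave 0.44, and was higher in clusters 1, 2, 5 and 8 and lower in cluster 10. *Bnip3* was at 71.5 and 96.2 CPM in macrophage-like cells (0.43, 0.15 to 0.70), and its share of the *Bnip3* and *Bnip3l* UMIs there was 35.6% (32.3 to 39.0) in WT and 46.5% (41.5 to 51.6) in *Clec7a*-/- cells. *Mxi1* was at 239 and 197 CPM in macrophage-like cells (−0.28, −0.45 to −0.10). In macrophage-like cells the lower *Vegfa* level thus stood beside *Bnip3* and *Mif* levels that were higher in the *Clec7a*-/- library, with *Mif* at 353 and 402 CPM (0.19, 0.059 to 0.32).

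The deleted gene lies on chromosome 6, as do 6 members. *Gapdh* is 4.30 Mb from it, *Tpi1* 4.65 Mb, *Eno2* 4.69 Mb, *Slc2a3* 6.66 Mb, *Hk2* 46.7 Mb and *Kdm3a* 57.8 Mb. Whether DNA carried along with the deletion differs at these genes was not tested.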

How the data were processed

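One library per genotype was made with a microwell 3′ kit for single cells. The authors deposited UMI count matrices, which are whole-number counts per gene and barcode with no normalization. The submitters' processing notes name Cell Ranger 2.1.1 and the mm10 build, and the labels also name 10x Genomics as the platform. Kept barcodes had 200 to 4000 genes and no more than 5% of UMIs from mitochondrial genes. Cells were clustered with Seurat 5.3.0 (R 4.3.3) on 2000 variable features without the members and 20 principal components, at resolution 0.8, which gave 16 clusters. Classes were named from marker genes. Scrublet (scanpy 1.11.5) called 0 of the kept barcodes as doublets, so none were removed and its calls were not relied on. Counts were summed per library and class. Ratios use a pseudocount of 0.5 UMI. Genes under 100 UMIs were left out of every count of genes at least 1.5-fold apart. Values of single members below this limit are also given, and only some of them with their UMIs. Counts of the class in which a gene was highest include all members. Intervals are exact Poisson (levels), conditional binomial (ratios) and Clopper-Pearson (shares), from scipy 1.17.1. The scripts were tested on simulated data. The named genes are the members in pathway order, and for further pathway genes the 2 largest ratios in each direction. The members and lists were chosen with earlier results of these data known.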

Additional observations from a re-analysis of the deposited data

How the results depend on the processing

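No paired analysis was possible because each genotype is 1 library. Of 340 alternative values 239 stayed within the interval of the main value (for counts, within 1.5 times it), 98 moved further and 3 turned direction. Only main values whose interval excludes 0 could count as turned, so that 0.090 and 0.049 below, against main values of −0.10 and −0.014 whose intervals include 0, count as moved. Ratios of sums are log2, *Clec7a*-/- over WT within a class or a class over macrophage-like cells in both libraries, and counts are members at least 1.5-fold apart. The cause of the shifts was not tested.

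Averaging over cells turned the DC-like over macrophage-like hypoxia ratio to 0.022, the median over members turned the monocyte-like over macrophage-like glycolysis ratio to −0.025, and leaving out the most abundant member turned it to −0.033. With up to 10% mitochondrial UMIs the glycolysis ratio between libraries in all cells was −0.12, the class hypoxia ratios were −0.48 (neutrophil-like) and 0.37 (monocyte-like), and the counts were 2 in monocyte-like and 4 in macrophage-like cells. With 500 to 6000 genes the class glycolysis ratios were −0.37 (neutrophil-like) and 0.023 (monocyte-like), the DC-like hypoxia ratio −0.0067, the DC-like ratios between libraries 0.12 and 0.13, and the counts 1 (macrophage-like) and 3 (monocyte-like). Removing cells in the top 5% of Scrublet scores, an alternative chosen after seeing the data, gave class glycolysis ratios of −0.38, 0.024 and −0.72, a DC-like hypoxia ratio of −0.11, and counts of 1, 2 and 2 in macrophage-like, DC-like and monocyte-like cells. The planned removal of called doublets removed no kept cell.

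With TMM scaling the glycolysis ratios between libraries were −0.27 (all cells), −0.28 (neutrophil-like) and −0.076 (monocyte-like), the hypoxia ratios −0.20 (all cells) and −0.17 (monocyte-like), and the count in all cells 10. A minimum of 20 UMIs gave counts of 4, 5 and 6 in monocyte-like, macrophage-like and DC-like cells. A 2-fold limit gave 1 in all cells and in neutrophil-like cells and 0 in the other classes. Clusters drawn from WT alone gave class ratios of −0.19, 0.13 and −0.55 for glycolysis and −0.48, 0.12 and −0.19 for hypoxia (neutrophil-like, monocyte-like, DC-like). Between libraries they gave −0.23 (macrophage-like) and 0.099 (DC-like) for glycolysis and −0.30 (neutrophil-like) and −0.32 (macrophage-like) for hypoxia, with counts of 2 (monocyte-like) and 4 (macrophage-like).

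Averaging over cells gave glycolysis ratios between libraries of −0.17, −0.23, −0.068, −0.077 and 0.11 (all, neutrophil-like, monocyte-like, macrophage-like, DC-like), hypoxia ratios of −0.11, −0.31 and −0.26 (all, neutrophil-like, macrophage-like), and class ratios of −0.25 (neutrophil-like glycolysis), −0.44 and 0.23 (neutrophil-like and monocyte-like hypoxia). The median over members gave hypoxia ratios between libraries of −0.11, −0.32, −0.0086 and −0.034 (all, neutrophil-like, monocyte-like, macrophage-like), glycolysis ratios of −0.12 (all) and 0.049 (monocyte-like), class glycolysis ratios of −0.78 and −0.99 (neutrophil-like, DC-like) and class hypoxia ratios of −0.48, 0.22 and −0.50. Without the most abundant member the ratios between libraries were −0.27 and −0.056 for glycolysis (neutrophil-like, monocyte-like) and −0.20 and −0.18 for hypoxia (all, monocyte-like), and the class ratios −0.49 and −0.54 for glycolysis (neutrophil-like, DC-like) and −0.64, 0.077 and −0.86 for hypoxia.

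Reciprocal PCA gave −0.39 and 0.053 for the neutrophil-like and monocyte-like glycolysis ratios, −0.74 for neutrophil-like hypoxia, 0.090 for neutrophil-like hypoxia between libraries, and counts of 1, 2 and 3 (macrophage-like, monocyte-like, neutrophil-like). A resolution higher by 0.4 gave −0.62 (DC-like glycolysis), −0.68 (neutrophil-like hypoxia), 0.12 (DC-like glycolysis between libraries) and a neutrophil-like count of 3. The log2 ratio of *Vegfa* shares was −0.53 in macrophage-like and −0.69 in neutrophil-like cells without thinning, and −0.60 in macrophage-like cells thinned to 2000 UMIs. Over 8 alternatives the *Vegfa* ratio stayed between −0.83 and −0.58 in monocyte-like, −0.77 and −0.68 in macrophage-like and −1.07 and −0.58 in DC-like cells, and ran from −0.67 to 0.48 in neutrophil-like cells. *Ldha* ran from −1.19 to −0.48 and *Ndrg1* from 0.056 to 0.81 in neutrophil-like cells.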

Other observations

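Further genes of the pathways were counted from a list of 59. Among hypoxia genes that are not members, 17 of 22 had at least 100 UMIs and 4 were at least 1.5-fold lower in the *Clec7a*-/- library, beside 5.7% of all genes, and 0 were higher. The 2 with the largest ratios were *Hmox1*, which degrades haem, at 15610 CPM in WT and 7426 in *Clec7a*-/- cells (−1.07), and *Hilpda*, a lipid-droplet gene, at 781 and 410 (−0.93). *Hilpda* was lower in neutrophil-like (583 and 211), monocyte-like (938 and 560), macrophage-like (927 and 605) and DC-like cells (312 and 209). *Hmox1* stood at −0.11 in neutrophil-like, −0.64 in monocyte-like, −0.67 in macrophage-like and −0.99 in DC-like cells.

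All 7 genes of the pentose phosphate pathway, which branches off glycolysis to make NADPH, were measured. *G6pdx*, which opens it, was at 121 and 77.4 CPM (−0.64) and *Pgd* at 583 and 378 (−0.63), while *Pgls* was at 13.9 and 23.4 (0.75). Within classes the gaps of *G6pdx* and *Pgd* were smaller. *G6pdx* was at −0.36 in monocyte-like and −0.32 in macrophage-like cells and *Pgd* at −0.38 and −0.30. In any of the 4 classes 0 of the pathway's measured genes were 1.5-fold lower. *Pgls* was further apart in macrophage-like cells, at 20.2 and 37.5 CPM (0.90, 0.41 to 1.37). *Rpia* was at least 1.5-fold higher in neutrophil-like cells. Of the 10 genes that carry pyruvate into the mitochondrion or govern its use there, 8 were measured over all cells, and none was 1.5-fold apart. Of the other glycolysis isoforms and branches 7 of 20 were measured, and *Eno3* was at 10.8 and 19.8 CPM over all cells (0.87). In DC-like cells, which held 67 of its 133 WT and 109 of its 150 *Clec7a*-/- UMIs, it was at 48.7 and 47.7 CPM (−0.032).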
